A study of Mus musculus with 2 samples.

Results

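The genes described are 10 genes of bile acid synthesis, conjugation, transport and sensing in mouse liver: Cyp7a1, Cyp7b1, Cyp8b1, Cyp27a1, Slc27a5, Baat, Slc10a1, Abcb11, Nr1h4 and Nr0b2. They were chosen by symbol, as every probe on the array that carried one of these names and was not a control spot, and they make up 10 of the 37074 names on the array, with 15 probes. The study compared primary hepatocytes of control mice with those of Drp1LiKO mice, which lack dynamin-related protein 1 (Drp1, gene Dnm1l), the protein that divides mitochondria, in the liver. Each genotype was measured on 1 array, so no difference between them has a replicate check and no test was possible. The values describe these 2 cultures.

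Drp1LiKO mice were Alb-Cre Tg/+ Drp1 flox/flox, with Cre recombinase driven by the albumin promoter, which is active in hepatocytes. Control mice were Drp1 flox/flox sibling littermates without Cre according to the methods of the study, whereas the sample labels call them wild type. Both were on a C57BL/6 background. Age, sex and number of the mice behind each culture are not given in the labels. Both cultures were isolated by collagenase perfusion, plated on collagen in high glucose medium with insulin and fetal bovine serum, and harvested 24 h after seeding with no further treatment.

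Bile acids are made from cholesterol in hepatocytes. The classic route starts with Cyp7a1, and Cyp8b1 sets the share of cholic acid, while an alternative route starts with Cyp27a1 and continues through Cyp7b1. Slc27a5 and Baat join bile acids to coenzyme A and then to taurine. Slc10a1 (NTCP) takes bile acids up from blood and Abcb11 (BSEP) exports them into the canaliculus, the space between hepatocytes that leads to the bile duct. Nr1h4 encodes the bile acid receptor FXR, which is known to induce Abcb11 and Nr0b2 (SHP), a repressor of Cyp7a1 and Cyp8b1.

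In these cultures, 6 of the 10 genes gave a signal well above background on both arrays: Cyp7b1, Cyp27a1, Slc27a5, Slc10a1, Abcb11 and Nr1h4. The other 4, Cyp7a1, Cyp8b1, Baat and Nr0b2, did so on neither array. Among the 6 detected genes, FXR (Nr1h4) stood 2.04-fold lower in Drp1LiKO at its RefSeq probe and 1.09-fold lower at its other probe. The RefSeq probe was under 2-fold with some of the other ways of processing given below. The enzymes and the export pump differed by at most 1.15-fold at their brightest probe. The uptake transporter Slc10a1 was 1.13-fold higher in Drp1LiKO at one probe and 2.18-fold higher in Drp1LiKO at the other.

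The 2 Slc10a1 probes are shown because their sequences differ in how far they are specific to that gene. The first, assigned by the array design to transcript NM_011387 at chr12:82056539-82056598 (mm9, minus strand), lists transcripts of 4 genes (Slc10a1, 4930402H24Rik, Spc24 and Med16). It holds a stretch of at least 15 bases in common, on the same strand, with 17 other probes of 17 other names. Of all probes on the array, 70.8% share no such stretch with another probe and 0.587% share one with as many probes as this one or more. Below, capitals mark the 24 bases it shares with the probe of the protease gene Sppl2a, the longest such stretch. The second Slc10a1 probe, assigned to NM_001177561 at chr12:82054180-82054239 (mm9, minus strand), lists Slc10a1 alone and shares no such stretch with any other probe, and capitals mark the polyadenylation signal letters AATAAA in it.
Slc10a1 first probe, bases 12 to 41: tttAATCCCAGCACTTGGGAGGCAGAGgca
Sppl2a probe, bases 31 to 60: ctcgAATCCCAGCACTTGGGAGGCAGAGtt
Slc10a1 second probe, bases 22 to 51: aactcaaaaggaAATAAActacaactggta

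The arrays measured 56600 transcript probes in 1 color, of which 27256 (48.2%) were well above background on the control array and 29462 (52.1%) on the Drp1LiKO array. No transcript spot was saturated. Every signal below is the processed signal, an intensity from which background was subtracted. Signals of a probe can be compared between arrays but not with those of another probe. The log2 ratio is Drp1LiKO minus control after each array was divided by its 75th percentile (313 on the control and 356 on the Drp1LiKO array), so equal signals give a ratio a little below 0. Over the 20165 genes detected on at least 1 array the median ratio was -0.05, with quartiles at -0.27 and 0.21. The targeted gene Dnm1l gave a signal of 2602 in control and 1217 in Drp1LiKO at one probe, a log2 ratio of -1.28, and 22.8 and 20.9 at the other, a log2 ratio of -0.31. Whether the Dnm1l probes lie in the deleted exons was not tested.

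The labelled cell type was checked against marker genes, each read by its brightest probe unless another is named. Ratios are given for those well above background on both arrays, since a marker above it on 1 array alone gives no measured ratio. The summed signals also hold the latter, with the dim value raised to the limit of detection. Hepatocyte markers were above background on both arrays for 14 of 14 genes, 11 of them higher in Drp1LiKO, with a median log2 ratio of 0.45. Past 2-fold, 3 were on the higher and 0 on the lower side, beside 5.32% and 4.59% of all genes. Albumin was at 219613 in control and 266703 in Drp1LiKO at its brightest probe, a log2 ratio of 0.10. Its other probe gave 162684 in control and 173880 in Drp1LiKO, a log2 ratio of -0.09. The summed signal of the hepatocyte markers, in multiples of the 75th percentile, was 1759 in control and 1847 in Drp1LiKO. Such a sum is weighted to its brightest probes, so it is read between arrays within a list and not between lists. Of 11 macrophage markers, 8 were above background on both arrays, 2 (Clec4f and Vsig4) on 1 array and Timd4 on neither. At the brightest probe all 8 had a higher value in Drp1LiKO, with a median log2 ratio of 2.47. For Csf1r the log2 ratio was 0.73 there, but its other probe gave 206 in control and 231 in Drp1LiKO, a log2 ratio of -0.02. The other probes of Cd68 and Lyz2 were higher in Drp1LiKO. The summed signal of the macrophage markers was 14.6 in control and 55.0 in Drp1LiKO, with Cd68 the brightest at 2346 and 9593. Of 8 endothelial markers, 6 were above background on both arrays and 2 (Lyve1 and Tek) on 1, with a median over the 6 of 1.60 and sums of 2.28 and 6.14, the brightest being Stab1 at 337 and 664. Of 8 stellate cell markers, 4 were above background on both arrays, 3 (Des, Pdgfrb and Rgs5) on 1 and Lrat on neither. The median over the 4 was 1.04 and the sums were 69.5 and 73.5. The brightest probe, of Acta2 at 21437 and 24640, makes up most of both sums. The only other Acta2 probe above background on both arrays gave 283 in control and 1474 in Drp1LiKO, a log2 ratio of 2.20. Of 8 cholangiocyte markers, 4 were above background on both arrays, Krt7 on 1 and Cftr, Epcam and Sctr on neither, with a median over the 4 of -0.33 and sums of 94.7 and 70.8, and Spp1 was the brightest at 24719 and 20346. The part of these other cells in the values of the bile acid genes was not tested. In a bulk culture, fewer cells of a type and less RNA per cell cannot be told apart.

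Cyp7a1 and Cyp8b1 of the classic pathway were not measurable in either culture. Cyp7a1, the rate-limiting enzyme of that pathway, gave a signal of 4.40 in control and 3.60 in Drp1LiKO at its RefSeq probe (NM_007824, chr4:6193456-6193515, mm9, minus strand). Its second probe, placed across chr4:6200012-6202672 and thus over a splice junction, gave 3.91 and 3.25. The lowest signal well above background on any probe was 18.2 on the control and 14.98 on the Drp1LiKO array, so all 4 values lie in the range of background. Before background correction, the mean intensity of the RefSeq probe was 64.1 in control and 68.1 in Drp1LiKO, against a local background of 57.0 and 56.0. That exceeded 35.4% of the 308 negative control spots on the control array and 91.2% on the Drp1LiKO array. Cyp8b1, the sterol 12-alpha-hydroxylase of this route (chr9:121824595-121824654, mm9, minus strand), gave 6.72 in control and 3.40 in Drp1LiKO, with no signal above background in either, and no ratio is given for it or for Cyp7a1.

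**Figure D1:**
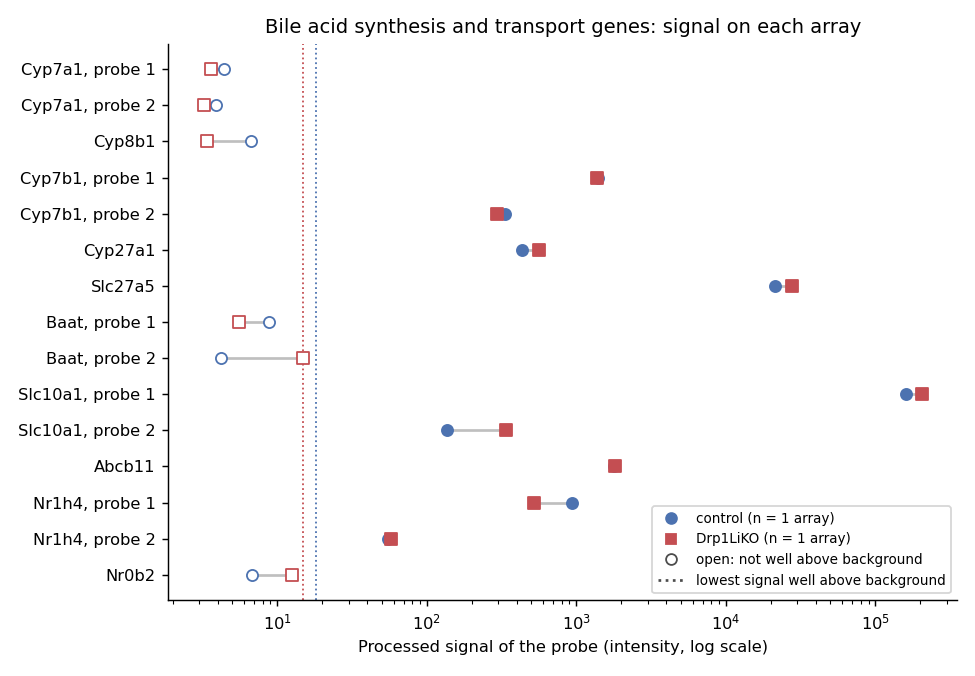
Processed signal (x axis, intensity on a log scale) of each of the 15 probes of the bile acid genes on the control array (circles) and the Drp1LiKO array (squares), 1 array per genotype, with probes of a gene numbered by their control signal. Open symbols were not well above background and dotted lines mark the dimmest signal well above background, 18.2 on the control and 14.98 on the Drp1LiKO array: both probes of Cyp7a1 and Baat and the probe of Cyp8b1 and of Nr0b2 lie left of the lines.

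Cyp7b1 and Cyp27a1 of the alternative route were detected and differed little. Cyp7b1, the oxysterol 7-alpha-hydroxylase, gave a signal of 1394 in control and 1379 in Drp1LiKO at the probe for NM_007825 (chr3:17972286-17972345, mm9, minus strand), a log2 ratio of -0.20. A second probe, over a splice junction of the predicted transcript XM_006535384, gave 332 and 295 and a log2 ratio of -0.35. Both Cyp7b1 probes were slightly lower in Drp1LiKO. Cyp27a1, the mitochondrial sterol 27-hydroxylase (NM_024264, chr1:74782203-74782262, mm9, plus strand), gave a signal of 434 in control and 560 in Drp1LiKO, a log2 ratio of 0.19. The noise of a log2 ratio between single spots, estimated as an SD from the spread of 300 probes printed 10 times on each array, was 0.11 for the first and 0.13 for the second Cyp7b1 probe and 0.12 for Cyp27a1. It covers the spot, not the culture, the animal or the labelling.

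The 2 enzymes of conjugation gave opposite pictures as to detection. Slc27a5, the bile acid coenzyme A ligase (NM_009512, chr7:13573701-13573760, mm9, minus strand), gave a signal of 21286 in control and 27849 in Drp1LiKO, a log2 ratio of 0.21 with a spot noise of 0.06. Baat, which joins taurine in the next step, was not well above background at either of its probes, both placed on NM_007519. One (chr4:49502933-49502992) gave 8.79 in control and 5.58 in Drp1LiKO and the other (chr4:49502399-49502458) gave 4.20 and 14.8. The order of the genotypes differed between the 2 Baat probes, and all 4 values were below the lowest signal well above background on their array.

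The 2 transporters were both detected. Abcb11 (NM_021022, chr2:69076390-69076449, mm9, minus strand) gave a signal of 1774 in control and 1802 in Drp1LiKO, a log2 ratio of -0.16 with a spot noise of 0.11. For Slc10a1 the value depended on the probe. The first probe gave 159398 in control and 203718 in Drp1LiKO, a log2 ratio of 0.17 with a spot noise of 0.05. The second gave 138 in control and 340 in Drp1LiKO, a log2 ratio of 1.12 with a spot noise of 0.14, so that both were higher in Drp1LiKO by amounts that differ beyond the spot noise.

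The probes that share sequence with the first Slc10a1 probe were read beside it. Of these 17 probes 14 were well above background on both arrays, and their log2 ratios ranged from -0.02 to 0.45 around a median of 0.27. Another 2 were so on the control array alone, which gives no measured ratio. The probe of Sppl2a, which shares 24 bases, gave 1536 in control and 2041 in Drp1LiKO, a log2 ratio of 0.23. The first Slc10a1 probe, at 0.17, lay within the range of these 14, and the second, at 1.12, lay above it. How much of the signal of the first probe comes from Slc10a1 transcripts was not tested.

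**Figure D2:**
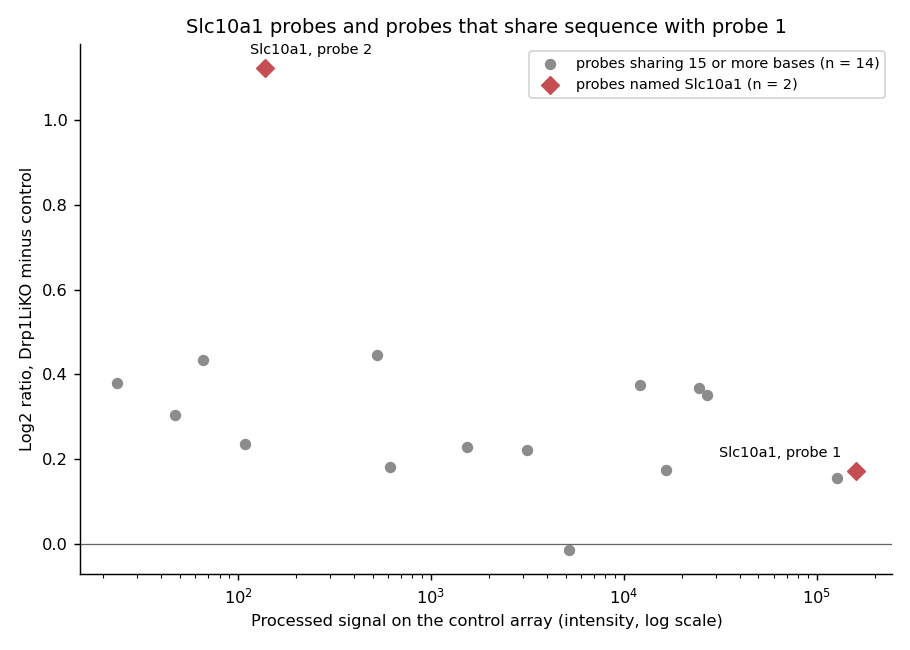
Log2 ratio, Drp1LiKO minus control (y axis), against the signal on the control array (x axis, intensity on a log scale), 1 array per genotype. Diamonds are the 2 probes named Slc10a1 and circles the 14 probes above background on both arrays that share at least 15 bases with probe 1: probe 1, at 0.17, lies within their range of -0.02 to 0.45, and probe 2 lies above it at 1.12.

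Of the nuclear receptors, Nr1h4 gave a signal of 941 in control and 524 in Drp1LiKO at the probe for NM_001163504 (chr10:88917222-88917281, mm9, minus strand), a log2 ratio of -1.03 with a spot noise of 0.12. Its second probe, placed on the cDNA clone AK050566 (chr10:88960160-88960219, mm9, minus strand), gave 55.2 in control and 57.5 in Drp1LiKO, a log2 ratio of -0.12 with a spot noise of 0.26. Both ratios are negative, but by the second probe the difference is smaller than the spot noise. Nr0b2 (NM_011850, chr4:133109694-133109753, mm9, plus strand) gave 6.78 in control and 12.6 in Drp1LiKO, neither well above background. Of Abcb11 and Nr0b2, the FXR targets named above, Abcb11 was detected with a log2 ratio of -0.16, and Nr0b2 was not detected.

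The study selected genes by a Z score of at least 2 without giving its formula in the sources used here. It was taken as the log2 ratio centred on the mean of all detected probes and divided by their SD, and a Z score of 2 then equals 2.46-fold higher or 2.48-fold lower. By the brightest probe of each gene, 0 of the 6 detected bile acid genes passed this threshold, where 6.30% of the 20165 genes did. The count was 1 (Nr1h4) with normexp background correction, where 6.33% of all genes passed. It was also 1 (Nr1h4) with a Z score from the median and median absolute deviation, where 15.7% of all genes passed. With a change of at least 2-fold as the call, 1 of the 6 passed, Nr1h4, on the lower side, where 4.59% of all genes were lower and 9.91% passed in either direction. The Z score of Nr1h4 was -1.56. That 2-fold call was lost with spike-in scaling, where Nr1h4 was at -0.99, with normexp background correction at -0.94, in the deposited normalized table at -0.88 and with the median of its probes at -0.57. Of the 6 genes, 3 had a higher and 3 a lower value in Drp1LiKO, with a median log2 ratio of 0.01. With the second Slc10a1 probe in place of the first, 2 genes would pass the 2-fold call, Nr1h4 lower and Slc10a1 higher.

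**Figure D3:**
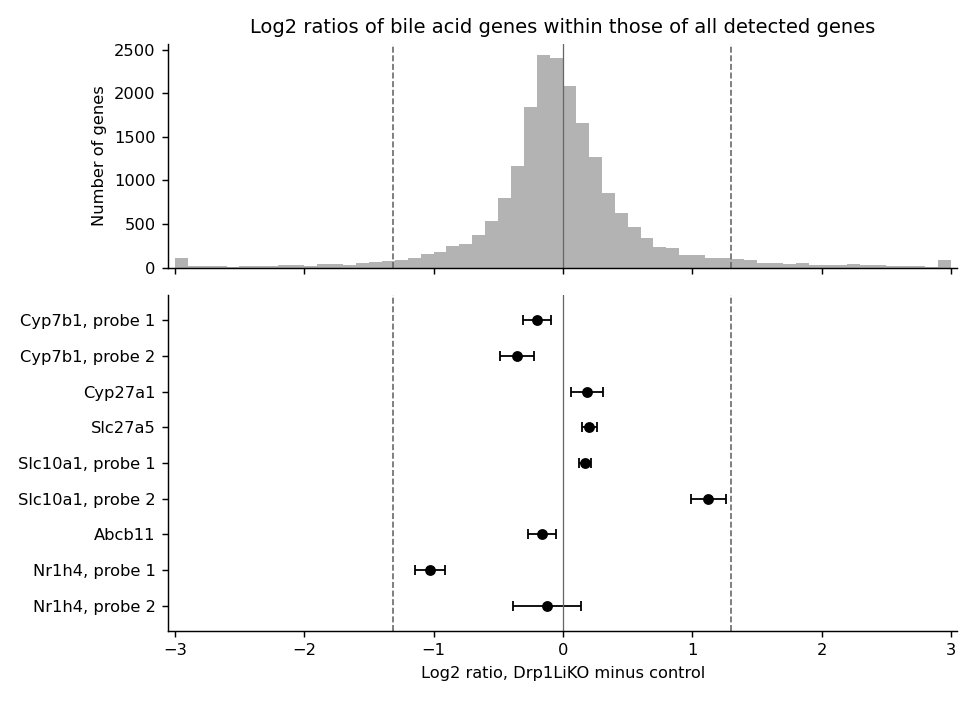
Top, number of genes by log2 ratio, Drp1LiKO minus control, for the 20165 detected genes, with values beyond 3 in the end bars, and bottom, the log2 ratio of the 9 detected probes of the bile acid genes, with bars of 1 SD of the noise between spots (not between cultures). Dashed lines mark a Z score of 2: no probe lies beyond them, and the largest ratios are 1.12 at probe 2 of Slc10a1 and -1.03 at probe 1 of Nr1h4.

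**Figure D4:**
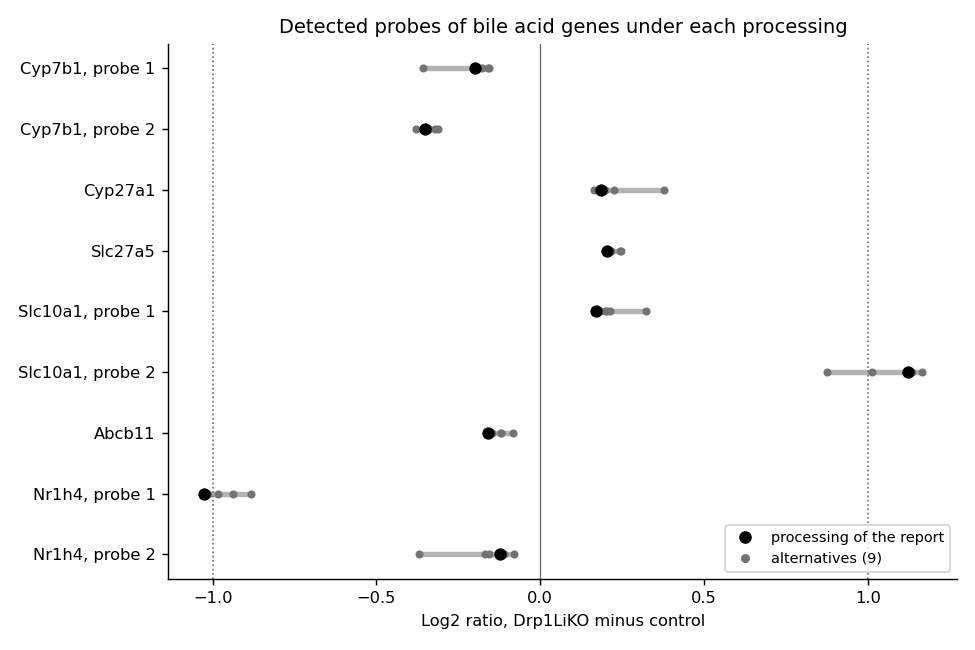
Log2 ratio, Drp1LiKO minus control (x axis), of each detected probe of the bile acid genes as reported (black) and under the other ways of processing its signal (gray), with dotted lines at a 2-fold difference. Each probe keeps its side of 0, and probe 1 of Nr1h4 and probe 2 of Slc10a1 lie on either side of the 2-fold line, at -1.03 to -0.88 and 0.88 to 1.16.

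Promoter sequence from RefSeq (GRCm38.p6) was at hand for 6 of the 10 genes, with 7 windows of 250 bases before a start site. Shown are Nr1h4, the gene past 2-fold by its brightest probe, and its known targets Abcb11 and Nr0b2, at chr10:89506659-89506908 (minus strand), chr2:69342617-69342866 (minus strand) and chr4:133553126-133553375 (plus strand). Capitals mark AGGTCA, the core site of many nuclear receptors, or its reverse complement TGACCT, and GTTAAT, a core site of HNF1.
Nr1h4 promoter: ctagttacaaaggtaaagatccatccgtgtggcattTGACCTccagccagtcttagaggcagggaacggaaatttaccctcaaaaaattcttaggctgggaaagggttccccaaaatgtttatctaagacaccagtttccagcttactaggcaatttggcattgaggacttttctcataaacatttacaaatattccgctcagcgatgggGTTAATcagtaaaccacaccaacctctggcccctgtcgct
Abcb11 promoter: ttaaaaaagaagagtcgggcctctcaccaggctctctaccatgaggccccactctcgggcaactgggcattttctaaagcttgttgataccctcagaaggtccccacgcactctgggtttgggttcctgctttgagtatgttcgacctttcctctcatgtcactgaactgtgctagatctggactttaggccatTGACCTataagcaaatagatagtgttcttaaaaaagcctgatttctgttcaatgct
Nr0b2 promoter: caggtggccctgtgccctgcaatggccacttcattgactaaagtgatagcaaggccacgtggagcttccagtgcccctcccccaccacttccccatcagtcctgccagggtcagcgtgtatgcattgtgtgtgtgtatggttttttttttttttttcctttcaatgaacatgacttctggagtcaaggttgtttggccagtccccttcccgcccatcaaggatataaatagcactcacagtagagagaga
The core site AGGTCA was searched on both strands and stood 214 bases before the start of Nr1h4, 56 before that of Abcb11 and 87 before that of 1 of the 2 Slc10a1 windows. Of all 32851 promoter windows of that length, 14.0% hold it. The longer AAGGTCA, a site of LRH-1 that contains the core site, is in 4.08% of all windows and in none of the 7. GTTAAT, in 6.43% of all windows, was found in that of Nr1h4, 40 bases before its start. An AGGTCA followed after 1 base by its reverse complement, the arrangement FXR binds with RXR, is in 0.00609% of all windows, and 2 direct copies with 1 base between them are in 0.0335%. Neither arrangement was found in the 7 windows, which says only that these exact letters are not in them. The motifs overlap, since AAGGTCA and both repeats contain AGGTCA. Cyp7a1, Cyp7b1, Baat and Slc27a5 had no entry.

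Other genes of bile acid handling were read from 7 lists, by the brightest probe of each gene. The lists were written with earlier results of these data known, so the counts below describe them and test nothing. Of 51 genes with a probe, 43 were detected, of which 24 had a higher and 19 a lower value in Drp1LiKO, with a median log2 ratio of 0.09 beside -0.05 for all genes. Past the Z threshold, 6 of the 43 rose and 0 fell, where 3.50% and 2.81% of all genes did. With at least 2-fold as the call, 7 rose and 0 fell, where 5.32% and 4.59% of all genes did. The genes that rose were Ch25h, Nr1i3, Cyp3a11, Cyp2c70, Ppargc1a and Akr1c6 by both calls and Slco1b2 by the 2-fold call. With normexp background correction Slco1b2 and Nr1i3 were under 2-fold, at log2 ratios of 0.95 and 0.83. Beside these counts stand the higher medians of the hepatocyte (0.45), macrophage (2.47), endothelial (1.60) and stellate cell (1.04) markers in Drp1LiKO given above, and the part of these cells in the list values was not tested.

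Among 14 further synthesis genes, 13 were detected, with 7 higher and 6 lower and a median of 0.20. Cyp2c70, which forms the muricholic acids of mouse bile, gave a signal of 918 in control and 3661 in Drp1LiKO, a log2 ratio of 1.81. Akr1c6, an aldo-keto reductase that acts on steroids, had 506 and 1634, a log2 ratio of 1.51. Ch25h, the cholesterol 25-hydroxylase that macrophages are also known to express, had 25.1 in control and 224 in Drp1LiKO, a log2 ratio of 2.97 that was 1.59 with normexp background correction. Amacr, a racemase of side chain shortening, was the lowest of the list at 2003 and 1571, a log2 ratio of -0.53. Akr1d1, the 5-beta-reductase that acts on the intermediates of both routes, was not well above background at either of its probes.

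In the list of conjugation and detoxification, 3 of 4 genes with a probe were detected and all 3 had a higher value in Drp1LiKO. Cyp3a11, a cytochrome that hydroxylates bile acids and drugs and is a known target of the receptors PXR and CAR, gave a signal of 736 in control and 3408 in Drp1LiKO, a log2 ratio of 2.03. Its only probe lists transcripts of 4 genes (Cyp3a11, Cyp3a41a, Cyp3a41b and Cyp3a44), which this value does not tell apart. Sult2a8, a sulfotransferase, was the lowest of the 3 at 727 and 951, a log2 ratio of 0.20. Sult2a1 was not detected. Of the uptake carriers other than Slc10a1, 3 of 4 were detected. Slco1b2, which takes up unconjugated bile acids, had 118 in control and 325 in Drp1LiKO, a log2 ratio of 1.28 that was 0.95 with normexp background correction. Its second probe was not well above background on either array. Slco2b1 was the lowest at 75.6 and 62.9, a log2 ratio of -0.45, but its other probe gave 0.81, and the median of its probes 0.18. Slco1a4 was not detected.

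Of the detected export genes, none passed the Z threshold or the 2-fold call in either direction, where 6.30% and 9.91% of all genes did. With so few genes, the lack of calls does not set exporters apart. All 7 genes of the canalicular list were detected, 2 higher and 5 lower, with a median of -0.33. Abcc2 (MRP2), which exports conjugated bilirubin and sulfated bile acids, was the highest at 2933 in control and 5661 in Drp1LiKO, a log2 ratio of 0.77, and Abcg2, a pump for drugs and urate, the lowest at 17647 and 11492, a log2 ratio of -0.80. On the basolateral side, Abcc4 (MRP4) gave a signal of 1470 in control and 2056 in Drp1LiKO, a log2 ratio of 0.30, and Abcc3 (MRP3) 16567 and 16938, a log2 ratio of -0.15 that was 0.07 in the deposited normalized table. Slc51a and Slc51b, the subunits of the OST transporter and known FXR targets, were not well above background on either array.

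Of 14 further regulators, 13 were detected, 8 higher and 5 lower, with a median of 0.03. Nr1i3, which encodes the xenobiotic receptor CAR, gave a signal of 19.9 in control and 104 in Drp1LiKO, a log2 ratio of 2.20 that was 0.83 with normexp background correction, and its second probe was not well above background. Ppargc1a, a coactivator of nuclear receptors, had 133 and 489, a log2 ratio of 1.69, and its other probe gave 1.80. Klb, the co-receptor for FGF15 on hepatocytes, was the lowest at 48.4 and 34.1, a log2 ratio of -0.69. Nr1i2, which encodes PXR, was not well above background on either array.

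Of the 4 genes known mainly from intestine or other tissues, Fgf15, the intestinal hormone that lowers Cyp7a1, and Fabp6, the ileal bile acid binding protein, were not well above background on either array. Slc10a2 (ASBT), the ileal and bile duct uptake transporter, gave a signal of 59.3 in control and 110 in Drp1LiKO, a log2 ratio of 0.71. Gpbar1, the membrane bile acid receptor of macrophages and other cells, had 50.1 and 55.3, a log2 ratio of -0.04 that was 0.06 in the deposited normalized table.

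**Figure D5:**
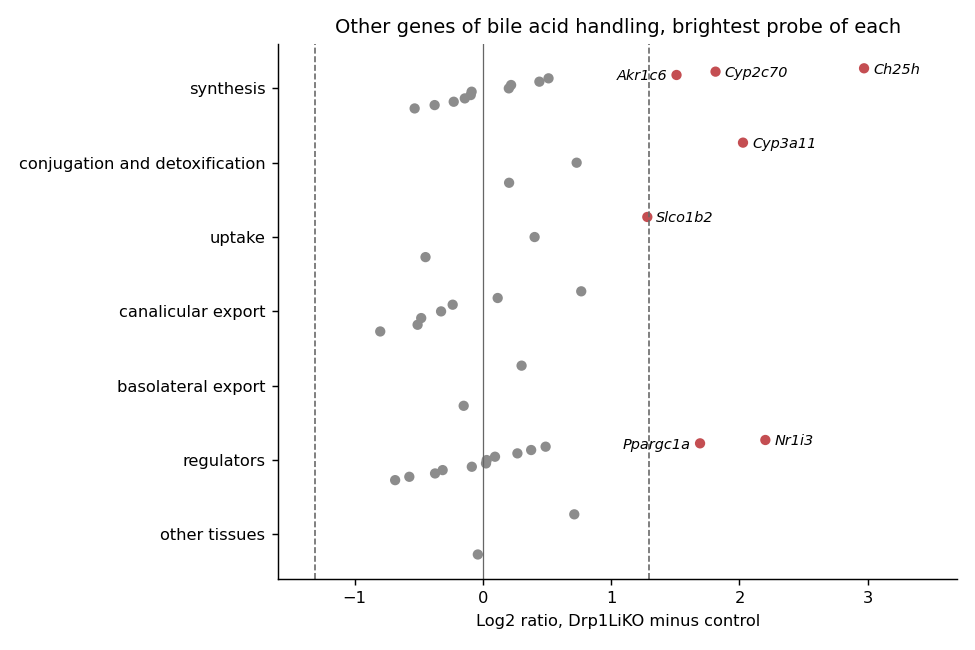
Log2 ratio, Drp1LiKO minus control (x axis), of the 43 detected genes of the 7 further lists (rows on the y axis), each by its brightest probe, 1 array per genotype, with vertical offsets only to separate points. Dashed lines mark a Z score of 2 and the 7 genes with at least a 2-fold difference are named: all 7 lie on the higher side, and none is in an export list. Of all genes, 9.91% passed 2-fold in either direction.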

How the data were processed

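Total RNA of each culture was amplified, labeled with Cy3 and hybridized to 60-mer Agilent mouse arrays, 1 array per genotype. For both arrays the authors deposited scanner output, with the intensity of each spot as a raw mean, a local background and a background-corrected processed signal, and a table of normalized intensities by a method not given in the sources used here. Agilent Feature Extraction was version 10.7.1.1 per the file headers and 9.5.1.1 in the submitters' processing notes.

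After removal of control and outlier spots, the spots of a probe were averaged as log2 of the processed signal and scaled to the 75th percentile of their array. The 30275 probes well above background on either array were used, and signals that were not were raised to the lowest one that was. A gene was its brightest probe on the mean of both arrays. Z scores were taken over the probes kept. All probes of the 10 genes are named, and of the other lists the genes past Z 2 or 2-fold, the highest and lowest, all genes of other tissues, the brightest markers and the undetected markers. Sppl2a and other probes sharing sequence with Slc10a1 were chosen after their values were seen. The genes and lists were chosen with earlier results of these data known. Coordinates are those of the files (mm9), and no annotation of that build was used, so exon and UTR positions are not given.

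No test was run because each genotype had 1 array, and the number of arrays limits the precision. The alternatives were other normalizations, background corrections, filters and probe rules, and the deposited table. Ugt1a1 had no probe under that name. Analyses used Python 3.11.15 with numpy 2.4.6 and pandas 2.3.3, and R 4.3.3 with limma 3.58.1 for the normexp correction, and were tested on simulated data.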

Additional observations from a re-analysis of the deposited data

How the results depend on the processing

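Of 66 values of the 6 detected genes under 11 alternatives, 32 did not differ by over 0.001 from those reported, among them those under other filters and floors, which do not touch a probe above background on both arrays. The other 34 values kept their sign, and 7 of them moved by more than the spot noise. The median log2 ratio of 0.01 became -0.33 with no filter on dim probes, where the 4 undetected genes entered at background and the median of all genes was -0.47. The count past the Z threshold went from 0 to 1 (Nr1h4) with normexp background correction and with a Z score from the median and median absolute deviation, by which 15.7% of all genes passed. The count past 2-fold went from 1 to 0 with spike-in scaling, normexp background correction, the deposited normalized table and the median of a gene's probes, by which Nr1h4 was at -0.57. It went to 2 without the Slc10a1 probe that lists transcripts of several genes, an alternative chosen after seeing the data. Of 198 values of the other named genes, 17 moved by more than the spot noise. No paired analysis was possible because each genotype had 1 array. Signal over background limits what can be said of Cyp7a1, Cyp8b1, Baat and Nr0b2, since a level below 18.2 in control or 14.98 in Drp1LiKO was not measurable.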

Other observations

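The other genes whose transcripts the first Slc10a1 probe lists have probes of their own. The log2 ratios of the detected 4930402H24Rik probes ranged from -0.28 to 0.23. The brightest of them gave a signal of 1955 in control and 2133 in Drp1LiKO, a log2 ratio of -0.06. The Spc24 probe gave a signal of 1014 in control and 445 in Drp1LiKO, a log2 ratio of -1.37. One Med16 probe, which shares a stretch of 15 bases or more with 43 other probes, gave 165821 and 147942, a log2 ratio of -0.35, and the other, which shares none, gave 49.9 and 54.0, a log2 ratio of -0.07. Among the probes that share a stretch with the first Slc10a1 probe, that of Rn4.5s was the brightest. It gave 128338 in control and 162121 in Drp1LiKO, a log2 ratio of 0.15. Those of Tm6sf1 (27008 in control and 39086 in Drp1LiKO, log2 ratio 0.35) and Csf3r (16566 and 21213, log2 ratio 0.17) were also bright on both arrays. Those of Ctso and 6430531B16Rik were well above background on the control array alone.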
